A study of Saccharomyces cerevisiae with 2 samples.

Results

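Genes of the secretory pathway named SEC, EXO or SFB with a number, together with COP1, RET2, RET3, SAR1, BET1, BET3, BOS1, SSO1, SSO2, SNC1 and SNC2, were followed in the budding yeast Saccharomyces cerevisiae. Chosen by symbol, though with earlier results of these data known, they made up 53 of the 5659 genes with at least 1 read in either library. Messenger RNA was sequenced from ZTW1, a wild type bioethanol strain, and from ZGR3, a mutant of ZTW1 that shares its genetic background, with 1 library per strain. The labels do not describe the mutation or the ploidy of either strain. Both cultures of 25 mL were started at an optical density of 0.05 in YPD, a rich medium with 10 g/L yeast extract, 20 g/L peptone and 20 g/L glucose. RNA was taken at entry into early stationary phase, when growth slows.

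Secretory and membrane proteins enter the endoplasmic reticulum (ER) through the Sec61 channel, guided by the signal recognition particle or by the Sec62 and Sec63 proteins. COPII coats then bud vesicles from the ER towards the Golgi, and COPI coats carry vesicles back from the Golgi to the ER. Rab GTPases and tethering complexes bring vesicles to their target, and SNARE proteins fuse the membranes. The last stage in yeast delivers vesicles to the bud tip and bud neck, where the exocyst, a tethering complex, docks them. Many of these genes were found as sec mutants that accumulate secretory proteins inside the cell.

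Reads assigned to genes came to 4.66 M in ZTW1 and 4.61 M in ZGR3 (M, mega). The members had between 50 and 4146 reads in ZTW1, with a median of 310, and between 29 and 4894 in ZGR3, with a median of 309, against medians of 190 and 185 over all genes with reads. In all, 44 members had at least 100 reads in both libraries. Together they took 30704 reads, or 0.659% of the ZTW1 total, and 32163 reads, or 0.698% of the ZGR3 total. The summed share was 1.06-fold higher in ZGR3, with a 95% counting interval of 1.04 to 1.08. Genes with many reads weigh most in this sum, above all SEC31 with 4146 and 4894 reads, and it was not corrected for coding length. Levels are given below as RPKM, reads per kilobase of coding length and per M assigned reads, which allows genes of different length to be compared. Differences are given as the fold of reads per total reads with its exact 95% counting interval, or as the log2 ratio of RPKM + 1 in ZGR3 to RPKM + 1 in ZTW1, a scale on which low genes appear less changed than they are. No difference could be checked against replicates and none has a p-value, since each strain has 1 library. The intervals cover counting error and compare the libraries only. A read share does not tell less RNA per cell from fewer cells in a given state.

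None of the 53 members was at least 2-fold apart between the libraries, on the log2(RPKM + 1) scale. Among the 5532 genes whose RPKM averaged 1 or more over both libraries, 2.46% were, 0.542% higher and 1.92% lower in ZGR3. All 53 members passed this minimum. Their log2 ratios ran from −0.65 for SEC59 to 0.66 for EXO1, with a median of 0.03 against −0.02 over all genes, and of 0.07 after correction for coding length. The middle part of the distribution, from the 25th to the 75th percentile, spanned −0.13 to 0.15 for the members and −0.24 to 0.18 for all genes. The members had more reads at the median, 310 against 190 in ZTW1 and 309 against 185 in ZGR3. The part of depth in their narrower span, and in the lack of members past 2-fold, was not tested. Of the members 24 lay below 0 and 29 above, and 52.0% of all genes lay below. The counting interval lay wholly above 1-fold for 12 members, or 22.6%, against 17.9% of all genes, and wholly below for 5 members, or 9.43%, against 19.8% of all genes. Past 1.5-fold were EXO1 on the higher side, where 3.63% of all genes were found, and SEC59 and SEC22 on the lower side, with 7.39% of all genes.

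**Figure D1:**
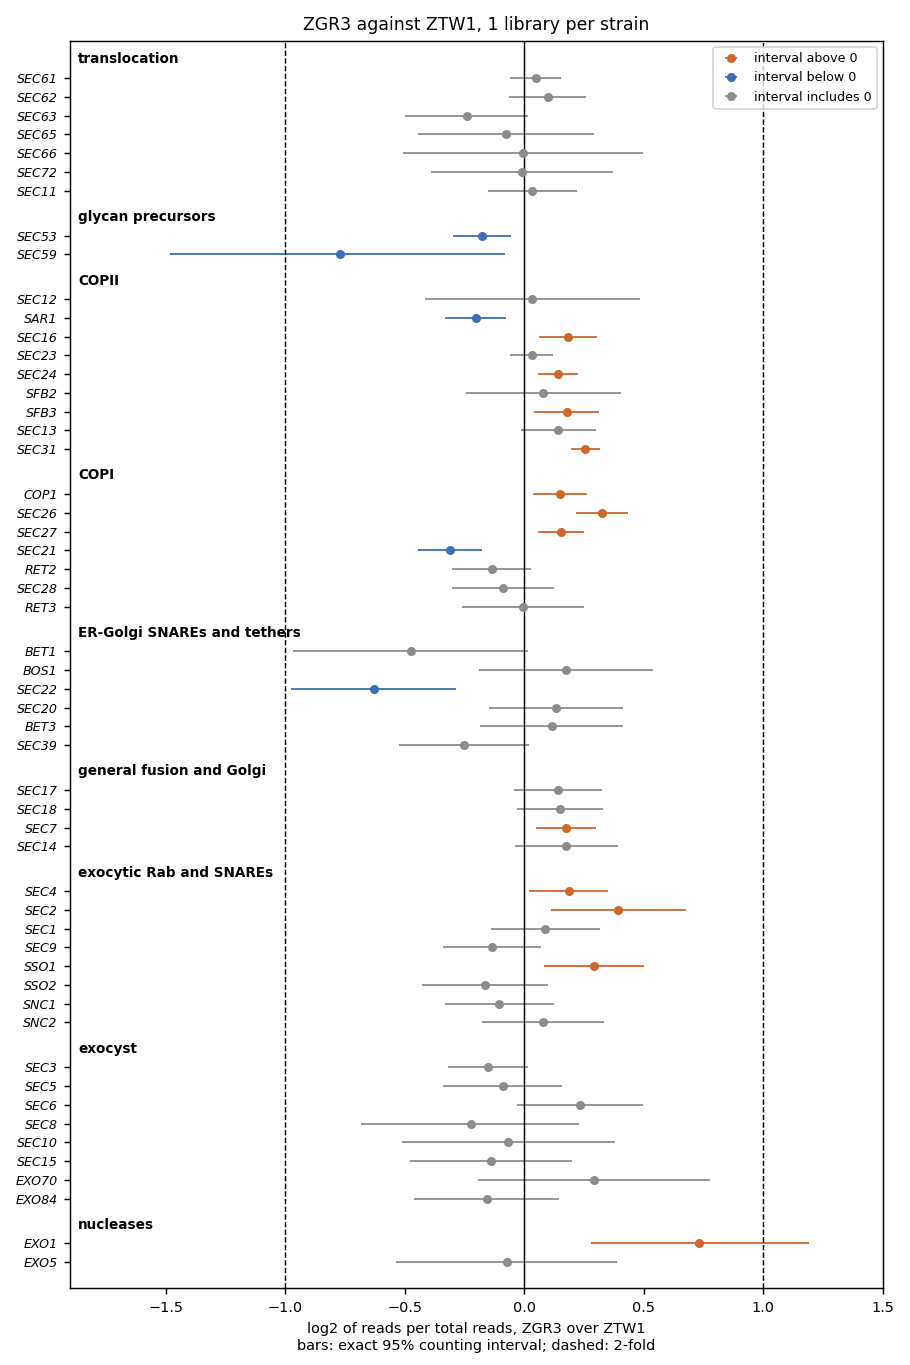
Fold of reads per total reads in ZGR3 over ZTW1 for each of the 53 members, on a log2 axis, by role, with 1 library per strain. Points are folds, bars are exact 95% counting intervals and dashed lines mark 2-fold; intervals lie above 0 for 12 members, below 0 for 5 and include 0 for the other 36.

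The levels themselves were spread far more than the differences. In ZTW1 they ran from 6.11 RPKM for SEC8 to 402 for SAR1, a 65.8-fold range, and in ZGR3 from 4.03 for SEC59 to 349 for SAR1, an 86.6-fold range. Across the 53 members, which share both libraries and so are not independent replicates, Pearson's r of log2 RPKM between the libraries was 0.988. In each library 36 members lay above the middle rank of all genes. Among the role groups of 4 or more genes, COPII had the highest median level, 154 RPKM in ZTW1 and 170.1 in ZGR3, and the exocyst the lowest, 15.4 and 13.8.

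**Figure D2:**
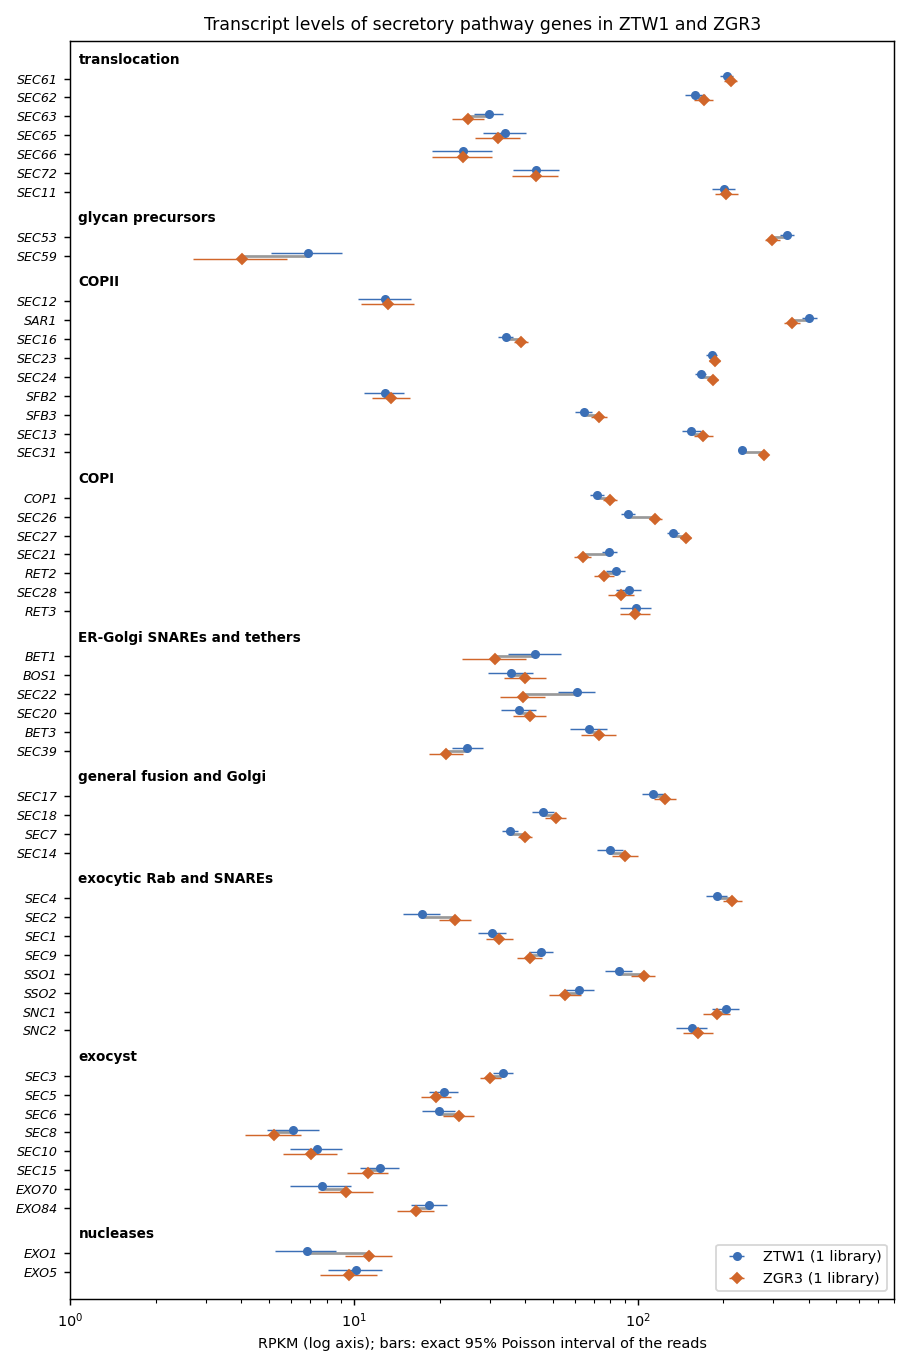
RPKM of each member in the ZTW1 library (circles) and the ZGR3 library (diamonds), on a log axis, by role, with exact 95% Poisson intervals of the reads as bars. The exocyst genes lie between 5.22 and 33.5 RPKM, below all COPI genes, which lie between 63.9 and 147.

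Translocation into the ER showed no difference detectable at this depth for any of its 7 genes. SEC61, the channel subunit, had 1379 reads and 205 RPKM in ZTW1 and 1409 reads and 212 RPKM in ZGR3, 1.03-fold higher (0.958 to 1.11). SEC62, which acts in translocation after synthesis, went from 612 to 648 reads, 1.07-fold higher (0.957 to 1.20). Both genes were thus nearly level between the strains' libraries. SEC63, the J-domain subunit that recruits the ER chaperone Kar2, had 277 and 232 reads, 1.18-fold lower (0.988 to 1.41), the lowest value of the group. SEC66 and SEC72, nonessential partners of the Sec63 complex, had 70 and 119 reads in ZTW1 and 69 and 117 in ZGR3. SEC65, a subunit of the signal recognition particle, had 130 and 122 reads, and SEC11, the catalytic subunit of signal peptidase, 470 and 476.

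The 7 translocation genes formed a higher and a lower set of levels in both libraries. SEC61, SEC11 and SEC62 lay at 205, 200.1 and 159 RPKM in ZTW1, and the other genes between 24.2 for SEC66 and 43.9 for SEC72. The order of all 7 was identical in ZGR3, from 212 RPKM for SEC61 to 24.1 for SEC66. Within the lower set, the counting intervals of each gene and the next in order overlapped in both libraries, as did those of SEC61 and SEC11. Of the 7 log2 ratios 4 lay below 0, against 52.0% of all genes. After centring on the median of all genes or correction for coding length 2 did, as SEC66 and SEC72 moved above 0. The median of the 7 was −0.0047.

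SEC53 and SEC59 make the sugar donors used for protein glycosylation in the ER, and both intervals lay below 1-fold. SEC53, which encodes phosphomannomutase, was among the most abundant members, with 1198 reads and 336 RPKM in ZTW1 and 1049 reads and 297 RPKM in ZGR3, 1.13-fold lower (1.04 to 1.23). SEC59 (YMR013C, chromosome XIII), which encodes dolichol kinase, had 50 and 29 reads, or 6.88 and 4.03 RPKM, and was 1.71-fold lower (1.06 to 2.79). It was the lowest log2 ratio among the members, and its reads covered 53.0% of the coding length in ZTW1 and 34.9% in ZGR3. The width of its interval follows from those low counts, and reaches from a few percent to beyond 2-fold.

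COPII genes were mostly a little higher in ZGR3, with 8 of 9 log2 ratios above 0 and a median of 0.14, against 48.0% of all genes above 0 and a median of −0.02. The outer coat gene SEC31 (YDL195W, chromosome IV) had the most reads of all members, 4146 in ZTW1 and 4894 in ZGR3, and was 1.19-fold higher (1.14 to 1.24), or 233 against 278 RPKM. Its partner SEC13, which also serves in the nuclear pore, went from 642 to 701 reads, 1.10-fold higher (0.990 to 1.23). SEC16, the scaffold of ER exit sites, had 1049 and 1179 reads, 1.14-fold higher (1.04 to 1.24). All 3 were higher in ZGR3, although the interval of SEC13 included 1-fold.

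As deposited, the inner coat gene SEC24 was higher in ZGR3, SEC23 was nearly level, and the GTPase gene SAR1 was lower. SEC23, the GTPase-activating subunit, had 1958 and 1978 reads, 1.02-fold higher (0.959 to 1.09), while the cargo-binding subunit SEC24 had 2153 and 2349 reads, 1.10-fold higher (1.04 to 1.17). SAR1, the GTPase that starts coat assembly, was the most abundant member per length and the exception in direction, with 1073 reads and 402 RPKM in ZTW1 and 922 reads and 349 RPKM in ZGR3. It was 1.15-fold lower (1.05 to 1.26). SEC12, the exchange factor that loads Sar1 with GTP, had 85 and 86 reads, or 12.9 and 13.2 RPKM, and showed no detectable difference (0.749 to 1.40). Of all genes in ZTW1, SAR1 was at percentile 93.3 by RPKM and its exchange factor SEC12 at 22.7.

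SEC24 has paralogs in SFB2 and SFB3, whose products also pair with Sec23 and select partly different cargo. SEC24 held 68.3% of the summed RPKM of the 3 genes in ZTW1 and 68.0% in ZGR3. SFB3 held 26.5% and 27.0%, and SFB2 5.26% and 5.02%. The shares were therefore close in both libraries while the sum went from 243 to 270 RPKM. SFB3 had 837 and 936 reads, 1.13-fold higher (1.03 to 1.24), and SFB2 157 and 164 reads, 1.06-fold higher (0.843 to 1.32). The ratio of SEC24 to SFB3 changed by a factor of 0.976 from ZTW1 to ZGR3, with an exact counting interval of 0.873 to 1.09.

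Coding length bears on the COPII values. In these libraries short genes were lower in ZGR3 and long genes higher. Of 10 length classes, the shortest had a median log2 ratio of −0.16 and the longest of 0.09. The median COPII gene was 2631 bases long, against 1236 over all genes. After correction for coding length the COPII median was 0.07, with 6 genes above 0 and 3 below, SEC23 and SFB2 joining SAR1. SEC31 was then at 0.16 instead of 0.25, SEC24 at 0.06 instead of 0.14, and SEC16 at 0.08 instead of 0.18. SAR1, only 573 bases long, went from −0.20 to −0.11. Over all members, 6 of the 12 intervals above 1-fold stayed above after correction, those of SEC31, SEC26, SEC4, SEC2, SSO1 and EXO1, and those of SEC13, SEC14 and SEC17 were added. The intervals of SEC16, SEC24, SFB3, COP1, SEC27 and SEC7 then included equality. Below 1-fold, 4 of 5 stayed, SAR1 was lost and SEC3 was added. This left 17.0% of the members above and 9.43% below, against 18.2% and 18.4% of all genes after that correction.

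**Figure D3:**
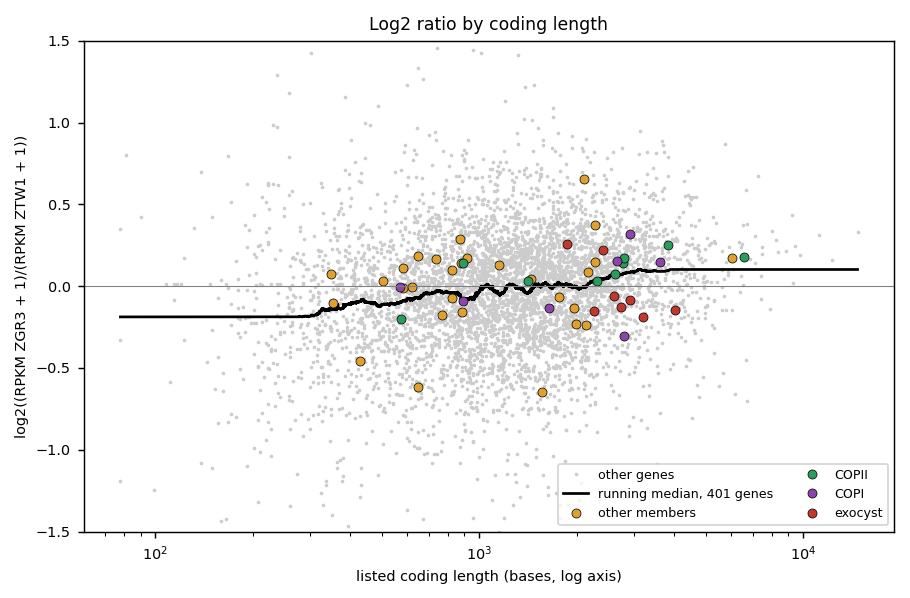
Log2 ratio of RPKM + 1, ZGR3 over ZTW1, against coding length in bases on a log axis, for the 5532 genes that passed the minimum of 1 RPKM (grey) and the 53 members (coloured), with the running median by length as a line. COPII genes lie near or above the line except SAR1, and 6 of 8 exocyst genes lie below it; 48 other genes lie outside the vertical range, which ends at 1.5 on either side of 0.

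COPI genes were split. Coatomer is made of 7 subunits. As deposited, the α, β and β′ subunit genes COP1, SEC26 and SEC27 were higher in ZGR3 while the γ subunit gene SEC21 was lower. After correction for coding length the intervals of COP1 and SEC27 included equality, and those of SEC26 and SEC21 did not. SEC26 (YDR238C) had 1253 reads in ZTW1 and 1552 in ZGR3, 1.25-fold higher (1.16 to 1.35). COP1 had 1207 and 1324 reads, 1.11-fold higher (1.03 to 1.20), and SEC27 had 1647 and 1812 reads, 1.11-fold higher (1.04 to 1.19). SEC21 (YNL287W) went the other way with 1036 and 827 reads, 1.24-fold lower (1.13 to 1.36). The intervals of SEC21 and of each of the 3 higher genes did not overlap.

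The remaining coatomer genes showed no detectable difference. The δ subunit gene RET2 had 638 and 574 reads, 1.10-fold lower (0.981 to 1.23), and the ε subunit gene SEC28, the nonessential one, had 385 and 358 reads, 1.06-fold lower (0.919 to 1.23). RET3, for the ζ subunit, had 261 and 257 reads (0.842 to 1.20), and lay below 0 as deposited but above 0 after centring or correction for coding length. The group's median was −0.0063, and 0.06 after that correction. SEC26 and SEC21 have nearly equal coding lengths of 2922 and 2808 bases, and their log2 ratios after correction were 0.24 and −0.38, still on opposite sides of 0. COP1 went from 0.15 to 0.06 with that correction, and SEC27 from 0.15 to 0.08. SEC21 lies on chromosome XIV, where the median log2 ratio was −0.05, and SEC26 and COP1 lie on chromosome IV, where it was −0.0025.

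Levels of the coatomer genes were close to each other. In ZTW1 the highest, SEC27 at 132 RPKM, was 1.84-fold above the lowest, COP1 at 71.8, and all neighbours in the order but the top pair had overlapping intervals. In ZGR3 the range was 2.30-fold, from 147 RPKM for SEC27 to 63.9 for SEC21, which had become the lowest. SEC26 moved from 92.0 to 115 RPKM, and from the fourth to the second place. The COPII genes, by contrast, spanned 31.4-fold in ZTW1 and 26.5-fold in ZGR3, from SAR1 to SFB2 or SEC12. Without SAR1, SEC12, SEC16, SFB2 and SFB3, the 4 main coat genes SEC13, SEC23, SEC24 and SEC31 lay between 154 and 233 RPKM in ZTW1 and between 170.1 and 278 in ZGR3.

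Genes for fusion and tethering between ER and Golgi also differed in direction. SEC22 (YLR268W, chromosome XII), a SNARE on vesicles moving both ways, had 183 reads and 60.9 RPKM in ZTW1 and 117 reads and 39.4 RPKM in ZGR3, 1.55-fold lower (1.22 to 1.97). BET1, a further SNARE of the same fusion step, had 87 and 62 reads, 1.39-fold lower with an interval that just reached equality (0.991 to 1.95). BOS1, which forms a SNARE bundle with both, had 122 and 136 reads, 1.13-fold higher (0.876 to 1.45). SEC22 was the second highest of its 6 genes in ZTW1 and the fourth in ZGR3, next to BOS1, which was at 35.6 RPKM in ZTW1 and 40.1 in ZGR3. SEC20, a SNARE for retrograde transport to the ER, had 204 and 221 reads, and SEC39, which belongs to the Dsl1 tether at the ER, 249 and 207, 1.19-fold lower (0.985 to 1.44). BET3, the core subunit of the TRAPP tethers, had 182 and 195 reads, or 67.1 and 72.7 RPKM, 1.08-fold higher (0.881 to 1.33), on chromosome XI, where the median log2 ratio of all genes was −0.24. The group had 3 genes below 0 and 3 above, and SEC22 was the 1 gene with an interval away from 1-fold.

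The 4 genes of the general fusion factors and the Golgi were all above 0, against 48.0% of all genes, and 3 of their intervals included 1-fold. SEC17, the α-SNAP adaptor, had 463 and 505 reads, 1.10-fold higher (0.970 to 1.25), and SEC18, the ATPase that takes SNARE bundles apart, had 491 and 539, 1.11-fold higher (0.980 to 1.26). SEC7, the Golgi exchange factor for Arf, had 996 and 1112 reads, 1.13-fold higher (1.04 to 1.23), and SEC14, the phosphatidylinositol transfer protein, 340 and 380, 1.13-fold higher (0.974 to 1.31). These 4 values lay within a narrow band, with log2 ratios from 0.14 to 0.17 and a median of 0.16. SEC7 is 6030 bases long, and its log2 ratio was 0.07 after correction for coding length, while those of SEC14 and SEC17, 915 and 879 bases long, became 0.25 and 0.21. The order of their levels, SEC17, SEC14, SEC18 and SEC7, was identical in both libraries, with no overlap of intervals between neighbours.

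At the plasma membrane, the Rab GTPase gene SEC4, its exchange factor SEC2 and the SNARE gene SSO1 were higher in ZGR3. SEC4, which marks secretory vesicles, had 571 reads and 189 RPKM in ZTW1 and 642 reads and 215 RPKM in ZGR3, 1.14-fold higher (1.01 to 1.27). SEC2 (YNL272C, chromosome XIV) had 184 and 239 reads, 1.31-fold higher (1.08 to 1.60), the highest value among the 53 members apart from EXO1. Its level was 17.3 RPKM in ZTW1 and 22.7 in ZGR3, far below that of SEC4. SEC1, the protein that clasps the assembled SNAREs, had 310 and 326 reads, 1.06-fold higher (0.907 to 1.25), and SEC9, the SNARE related to SNAP-25, 416 and 375, 1.10-fold lower (0.952 to 1.26). Of the 8 genes 5 lay above 0, against 48.0% of all genes. Their median was 0.08, and 0.14 after correction for coding length.

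The membrane SNAREs of this step come in paralog pairs. SSO1 (YPL232W, chromosome XVI) had 348 reads and 85.5 RPKM in ZTW1 and 421 reads and 105 RPKM in ZGR3, 1.22-fold higher (1.06 to 1.41). SSO2 (YMR183C, chromosome XIII) had 257 and 227 reads, or 62.1 and 55.5 RPKM, 1.12-fold lower (0.933 to 1.34). SSO1 thus held 57.9% of the pair's RPKM in ZTW1 and 65.4% in ZGR3, and the ratio of SSO1 to SSO2 went from 1.38 to 1.89, a factor of 1.37 (1.08 to 1.73). SNC1 had 336 and 309 reads, or 204 and 189 RPKM, and SNC2 had 251 and 262 reads, or 155 and 163 RPKM. SNC1 held 56.8% of its pair in ZTW1 and 53.7% in ZGR3, a factor of 0.881 in the ratio (0.694 to 1.12), so a shift between the SNC genes was not detectable at this depth. Assigned reads covered 95.4% to 99.4% of the coding length of these 4 genes in both libraries. Paralogs can share reads, and the part of this in the SSO1 and SSO2 values was not tested. Of the 5 paralog ratios computed, which include those among SEC24, SFB2 and SFB3, the SSO pair was the 1 whose interval lay away from 1.

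**Figure D4:**
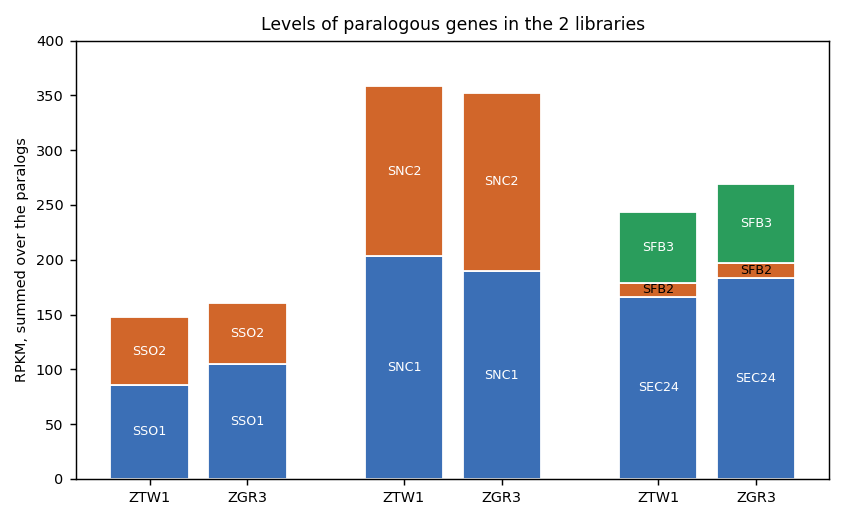
RPKM of the paralogs SSO1 and SSO2, SNC1 and SNC2, and SEC24, SFB2 and SFB3, stacked, in the ZTW1 and ZGR3 libraries, with 1 library per bar and no error bars. The SSO1 part of its pair is 57.9% in ZTW1 and 65.4% in ZGR3, and the SNC1 part of its pair 56.8% and 53.7%. The SEC24 part of its family is 68.3% and 68.0%.

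The exocyst genes were low in both libraries and no difference was detectable for any of the 8 subunits as deposited. SEC3, a subunit that binds the plasma membrane, was the highest, with 627 reads and 33.5 RPKM in ZTW1 and 558 reads and 30.2 RPKM in ZGR3, 1.11-fold lower (0.990 to 1.25). SEC5 had 282 and 262 reads and EXO84 had 194 and 172, 1.06-fold lower (0.897 to 1.26) and 1.12-fold lower (0.904 to 1.38). SEC6 had 224 and 260 reads, 1.17-fold higher (0.978 to 1.41). These 4 subunit genes lay between 16.5 and 33.5 RPKM.

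The other exocyst genes were lower still. SEC15, which binds the Rab Sec4, had 157 and 141 reads, or 12.3 and 11.2 RPKM, 1.10-fold lower (0.872 to 1.39). EXO70, the other subunit that binds the plasma membrane, had 67 and 81 reads, or 7.68 and 9.39 RPKM, 1.22-fold higher (0.873 to 1.72). SEC10 had 90 and 85 reads, or 7.38 and 7.05 RPKM, and SEC8 had 91 and 77, or 6.11 and 5.22 RPKM, 1.05-fold lower (0.770 to 1.43) and 1.17-fold lower (0.853 to 1.60). SEC8 was at percentile 9.82 of all genes in ZTW1 and 9.11 in ZGR3. The upper ends of the intervals of these 4 genes lay between 1.39-fold and 1.72-fold, and all 4 intervals included equality.

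Between the subunit genes of the exocyst the levels differed more than between those of coatomer. The highest was 5.49-fold above the lowest in ZTW1 and 5.78-fold in ZGR3, SEC3 against SEC8 in both. The counting interval of SEC3 was apart from that of the next gene in both libraries. Those of SEC5, SEC6 and EXO84 overlapped in order, and so did those of EXO70, SEC10 and SEC8, the 3 lowest. In both libraries SEC3, EXO84, SEC15, EXO70, SEC10 and SEC8 held the same places in the order, and SEC5 and SEC6 changed places.

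As a set, 6 of 8 exocyst genes lay below 0, against 52.0% of all genes, with a median of −0.11. Summed over the subunits, 1732 reads in ZTW1 and 1636 in ZGR3 gave a share 1.05-fold lower, with an interval that included equality (0.978 to 1.12). All subunit genes are long, from 1872 to 4011 bases, and after correction for coding length the median was −0.17 and the interval of SEC3 lay below 0. The COPII genes had a similar median length, 2631 against 2674.5 bases, but include shorter genes, down to 573 bases for SAR1. Their summed reads were 12100 and 13209, 1.10-fold higher (1.08 to 1.13), with 4146 and 4894 of these from SEC31. For COPI genes the sums were 6427 and 6704, 1.05-fold higher (1.02 to 1.09). None of these sums was corrected for coding length. The running median of log2 ratios by length was 0.10 at SEC31 and 0.08 at SEC27, the COPI gene with the most reads. No test of a difference between these groups is possible with 1 library per strain.

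The naming rule also took in EXO1 and EXO5, which encode nucleases and not secretory proteins. EXO1 (YOR033C, chromosome XV), the exonuclease of mismatch repair and recombination, had 67 reads and 6.82 RPKM in ZTW1 and 110 reads and 11.3 RPKM in ZGR3. It was 1.66-fold higher (1.21 to 2.28), the highest log2 ratio of all members. EXO5, a mitochondrial exonuclease, had 83 and 78 reads, 1.05-fold lower (0.763 to 1.45). Without both the median of the members was 0.03 as well.

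Of 75 further genes of the pathway listed by role, 72 were matched by symbol, and none was 2-fold apart, against 2.46% of all genes. Below 0 lay 41 of them, against 52.0% of all genes, with a median of −0.04 against −0.02. The intervals of 11 lay above 1-fold and of 13 below, against 17.9% and 19.8% of all genes, so these counts were near the background. For translocation, 14 genes of the signal recognition particle, its receptor, the Sec61 partners and the signal peptidase had a median of −0.22 with 9 below 0, and of −0.13 after correction for coding length. SRP21, a subunit of the particle, had 151 and 87 reads, 1.72-fold lower (1.31 to 2.26), while SPC1, of the signal peptidase, had 21 and 30 reads, 1.44-fold higher (0.7999 to 2.65). SRP21 was thus lower where SEC65, of the same particle, had 130 and 122 reads.

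Cargo receptors and p24 proteins had 8 of 15 genes above 0, against 48.0% of all genes, and a median of 0.09. This median was 0.16 after correction for coding length and 0.0015 after subtraction of chromosome medians. The intervals of 4 of the 15 lay above 1-fold and of 3 below, against 17.9% and 19.8% of all genes. The 2 genes furthest from 0 were both lower. ERV15, a paralog of the cargo receptor ERV14, had 47 and 26 reads, 1.79-fold lower (1.08 to 3.01), and the lectin-like EMP46 had 151 and 109, 1.37-fold lower (1.06 to 1.77). Arf, its regulators and the retrieval receptors, which work with COPI, had 4 of 8 genes on each side of 0. Of these 8, the intervals of 3 lay above 1-fold and of 1 below. Among them ERD2, the receptor for HDEL proteins, had 94 and 60 reads, 1.55-fold lower (1.11 to 2.18), and GCS1, an Arf GTPase-activating protein, 127 and 179, 1.43-fold higher (1.13 to 1.80).

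The further Rab, tether and SNARE genes between ER and Golgi had 13 of 18 below 0, against 52.0% of all genes, and a median of −0.07 against −0.02. The intervals of 14 included equality, 3 lay below 1-fold and 1 above. The TRAPP gene TRS31 had 115 and 77 reads, 1.48-fold lower (1.10 to 1.998), and the SNARE gene YKT6 451 and 326, 1.37-fold lower (1.18 to 1.58). The COG complex, a Golgi tether, had 5 of 8 genes below 0 and a median of −0.29. The intervals of 3 of these 8 lay below 1-fold and of 1 above, against 19.8% and 17.9% of all genes. COG4 had 158 and 96 reads, 1.63-fold lower (1.26 to 2.12), and COG2 had 29 and 47 reads, 1.64-fold higher (1.01 to 2.70). Exocytosis regulators had 6 of 9 genes above 0, against 48.0% of all genes, and a median of 0.06. SRO77, which binds Sec9, had 390 and 331 reads, 1.17-fold lower (1.004 to 1.35), and MYO2, the myosin that carries vesicles to the bud, 805 and 913, 1.15-fold higher (1.04 to 1.26).

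The members lie on 15 of the 16 nuclear chromosomes, and in the R64 annotation no protein-coding gene overlapped any of them. Coding lengths ran from 348 bases for SNC2 to 6588 for SEC16, with a median of 1758 against 1236 over all genes, and 31 members were longer than that. Reads covered at least 90% of the coding length for 40 members in each library. The lowest coverage was 52.1% for SEC10 in ZTW1 and 34.9% for SEC59 in ZGR3. Whether strand was used in counting is not known here, and reads from antisense transcripts cannot be told apart from those of a gene.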

How the data were processed

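Each deposited table holds, per the file headers, the count of reads assigned uniquely to a gene, its length in bases, the percent of that length covered by reads and RPKM. The authors' RPKM values followed from count, length and header total within 0.1% for all 5659 genes in both libraries, and every length was a multiple of 3, hence the term coding length. Genes absent from a table were set to 0 reads. The submitters' processing notes name the build sacCer2. What aligner, filters and strand setting were used is not given in the sources used here. Symbols are those of the tables. IDs were matched to RefSeq R64 only for chromosomes and for overlap between annotated gene spans (5653 of 5659, all 53 members). That build differs, so no coordinates or sequences are given.

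Log2 ratios used a pseudocount of 1 RPKM and the genes averaging at least 1 RPKM. Intervals of a fold are exact Clopper-Pearson intervals of the binomial share of reads at 95%. Intervals of paralog ratios are exact conditional intervals of the odds ratio. Reads carry no molecular identifiers, so intervals cover counting error only. The size rule was 2-fold. Role groups and further lists were written from textbook roles. Members, lists and alternatives were chosen with earlier results of these data known. Every member was described, and of each further list the 2 genes furthest from 0 among those averaging at least 10 RPKM. Alternatives were pseudocounts of 0.1 and 5 RPKM, centring, trimmed mean of M values scaling, no filter or a minimum of 10 RPKM, subtraction of the median of the 401 genes nearest in length (correction for coding length), subtraction of chromosome medians, and 1.5-fold and 3-fold rules. The fold intervals, the 2-fold rule, the trimmed mean of M values scaling and the running median by length were tested on simulated data. The other steps were not. Simulated reads carried Poisson counting error only, which is the error that the intervals assume. They held no variation between cultures, so how the intervals hold under such variation was not tested. Python 3.11.15, numpy 2.4.6, pandas 2.3.3 and scipy 1.17.1 were used.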

Additional observations from a re-analysis of the deposited data

How the results depend on the processing

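No member was at least 2-fold apart under any alternative tried, and 3 were past the 1.5-fold rule, which widens the call by construction. The number below 0 was 21 to 24 of 53 members, and 20 of the 47 that passed a minimum of 10 RPKM. The median of the members was 0.03 to 0.07, the higher value after correction for coding length. That of COPII was 0.07 to 0.16 and that of the exocyst −0.17 to −0.08. Medians near 0 changed sign, with −0.0048 to 0.08 for translocation and −0.0074 to 0.06 for COPI. The median of SEC53 and SEC59 was −0.47 to −0.18, and with a minimum of 10 RPKM rested on SEC53 alone. At that minimum neither nuclease gene was left. Centring and trimmed mean of M values scaling moved all genes by about 0.02 and changed the sign of SEC66, SEC72 and RET3. The length correction changed the sign of 6 members, SEC23, SFB2 and SNC1 besides these. No paired analysis was possible because each strain had 1 library, and for that reason no replicate could be left out. Depth limits most the 9 members under 100 reads in at least 1 library, BET1, EXO1, EXO5, EXO70, SEC8, SEC10, SEC12, SEC59 and SEC66.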
